A study of Mus musculus with 6 samples.

Results

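Neurexins, neuroligins and LRRTMs are adhesion proteins that hold the presynaptic and postsynaptic sides of a synapse together. The 8 genes described here were taken by symbol as Nrxn2, Nrxn3, Nlgn1, Nlgn2, Nlgn3, Lrrtm1, Lrrtm2 and Lrrtm3. They are 8 of the 12559 gene symbols with an mRNA in the deposited tables, and they account for 25 of the 32870 mRNA transcripts listed. RNA had been sequenced from the prefrontal cortex (PFC), a frontal area of the cortex that takes part in the control of emotion, of 3 repeated social defeat (RSD) mice and 3 control mice. All 6 were male C57BL/6 mice, an inbred strain, aged 6 to 8 weeks. On 6 nights the RSD mice were exposed for 2 h to an aggressive CD-1 male placed with them. The RSD mice sequenced were limited to those with anxiety-like behavior, relative to controls, in the elevated plus maze. The tissue was taken after this test. Controls stayed undisturbed in a cage and room of their own, so RSD and the housing cannot be told apart. Nothing says which mice were cage mates, and p-values measure only the spread between these samples.

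Neurexins sit in the presynaptic membrane. Their outer part binds neuroligins and LRRTMs across the cleft, and alternative promoters and splicing give each neurexin gene many isoforms that differ in these partners. Neuroligin 1 is found mainly at excitatory synapses, neuroligin 2 at inhibitory synapses and neuroligin 3 at both, while LRRTMs belong to excitatory synapses. The set has been studied widely in relation to autism, schizophrenia and social behavior.

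Values are in FPKM, fragments scaled to transcript length and to the size of the library, which the authors computed per transcript. The libraries were depleted of ribosomal RNA and kept the strand of origin. The depth of each library is unknown except as a ratio, which ranged over the mice from 0.943 to 1.11 of that of RSD mouse 1, and the mRNA values summed to 149323 to 158966 FPKM in RSD mice, against 135141 to 168805 FPKM in control mice. Control mouse 1 stood apart from the other controls, since across genes its correlation with RSD mouse 2 was 0.891 and with control mouse 2 only 0.835. A listed value of 0 can be a failed estimate. Slc17a7, which loads glutamate into vesicles of excitatory neurons, had 327, 331 and 311 FPKM in RSD mice, against 311, 0 and 0.0055 FPKM in control mice. All 6 excitatory neuron markers and all 7 interneuron markers were in the table. Fewer cells of a type and less RNA per cell cannot be told apart in such tissue samples.

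For each gene the mRNA transcripts with its symbol were summed, and log2(FPKM + 0.1) was compared between RSD and control mice with limma, a scale that understates the change of low genes. A gene was tested when at least 3 mice had at least 0.5 FPKM, which all 8 passed. None of the 8 reached an adjusted p under 0.05 (Benjamini-Hochberg over 12277 genes, of which 0.0733% did). Before adjustment 2 of the 8, Nrxn2 and Lrrtm2, had a p of 0.05 or less, against 8.94% of all genes. One gene of the 8, Nrxn2, had an absolute log2 fold change of 1 or more and an unadjusted p of 0.05 or less, against 2.42% of all genes. These cut-offs are the threshold used in the study, which applied them to single transcripts with edgeR. Here they were applied to limma fits, and for this count to gene sums. No tested Nrxn2 transcript met them. The RSD and control values did not overlap for the same 2 genes, both higher in RSD mice, while 9.39% of all genes were higher without overlap. None of the 8 was lower without overlap, against 6.66% of all genes. Of the 8 fold changes 5 were positive, against 54.5% of all genes, whose median log2 fold change was 0.03.

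**Figure D1:**
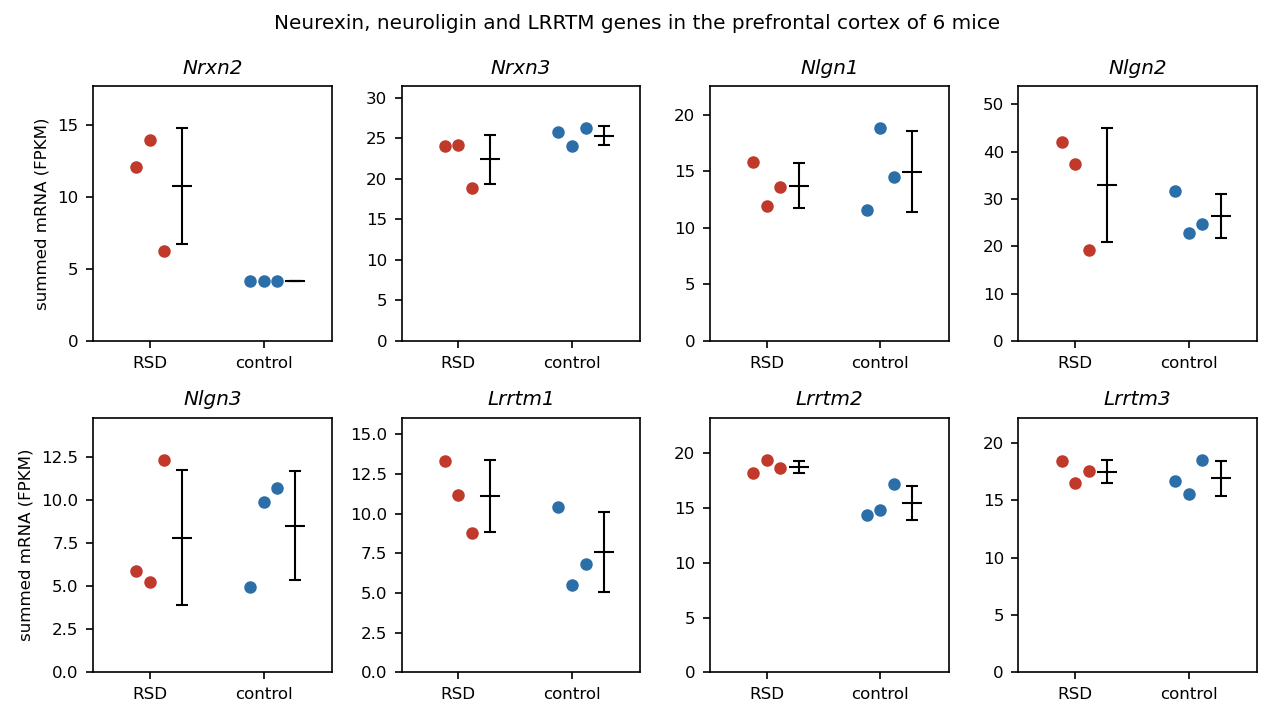
Summed mRNA level (FPKM, linear axis from 0) of the 8 genes in each mouse, RSD at the left (red) and control at the right (blue), with the mean and SD of each group (n = 3) beside the points. Nrxn2 sits between 6.29 and 14.0 FPKM in RSD mice and near 4.18 FPKM in every control mouse, and Lrrtm2 is the other gene whose groups do not overlap.

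The genes differed in level. Since FPKM is per length, the mRNA sums can be set side by side as levels. Averaged over the 6 mice, Nlgn2 was the most abundant at 29.7 FPKM, but it was above the next, Nrxn3 at 23.9 FPKM, in 4 of the 6 mice. Nrxn3 exceeded Lrrtm3, at 17.2 FPKM, in all 6 mice. Lrrtm3 and Lrrtm2, at 17.1 FPKM, could not be ordered, as Lrrtm3 was higher in 4 mice. Lrrtm2 was above Nlgn1, at 14.4 FPKM, in 5 mice, and Nlgn1 was above Lrrtm1, at 9.35 FPKM, in 6. The lowest were Nlgn3 at 8.15 FPKM and Nrxn2 at 7.48 FPKM. Lrrtm1 was above Nlgn3 in 3 mice and Nlgn3 above Nrxn2 in 4, so these neighbours did not differ beyond their spread. Among the presynaptic genes Nrxn3 mRNA was therefore more abundant than Nrxn2 mRNA in every mouse. Among the postsynaptic genes the mRNA of the inhibitory-synapse member Nlgn2 was on average above the others. With the lncRNA transcripts of the loci added, the averages were 77.4 FPKM for Nrxn3, 40.0 FPKM for Nlgn1 and 37.5 FPKM for Nlgn2. The order given here thus holds for mRNA transcripts only.

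Nrxn2 encodes neurexin 2 and lies on chromosome 19 from 6418738 to 6533216 on the plus strand. Its summed mRNA was 12.1, 14.0 and 6.29 FPKM in RSD mice, against 4.19, 4.18 and 4.18 FPKM in control mice. Every RSD mouse was above every control mouse, RSD mouse 3 the least so, and the control values lay closer together than those of any other of the 8 genes. The means were 10.8 ± 4.0 FPKM in RSD mice and 4.18 ± 0.00633 FPKM in control mice (SD, n = 3 each). The log2 fold change was 1.27 (SE 0.306, limma, adjusted p = 0.513), so the difference did not pass the adjusted threshold. Without RSD mouse 1, 2 or 3 the log2 fold change was 1.15, 1.04 and 1.61, with adjusted p of 0.885, 0.866 and 0.0888 (limma). Without any one control mouse it was 1.27, with adjusted p from 0.179 to 0.745.

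The equal sums of the controls were not made of equal transcripts. ENSMUST00000077182 is the one Nrxn2 transcript that spans the gene from its first to its last listed base, and it was listed at 5.40, 4.27 and 0 FPKM in RSD mice, against 0.0503, 0 and 2.08 FPKM in control mice. ENSMUST00000128272 shares its start, ends at 6466750, and was listed at 2.27, 2.79 and 0 FPKM in RSD mice, against 0.0435, 1.90 and 0.0145 FPKM in control mice. Both were thus near or at 0 in RSD mouse 3 and in part of the controls. ENSMUST00000137821, from 6428646 to 6472380, was listed at 0.424, 1.84 and 2.01 FPKM in RSD mice, against 0, 0.316 and 0.175 FPKM in control mice. It did not overlap between the groups, but too few mice had 0.5 FPKM for it to be tested. ENSMUST00000150792, from 6454571 to 6482697, was found in every mouse at 3.97, 5.07 and 4.28 FPKM in RSD mice, against 4.09, 1.96 and 1.91 FPKM in control mice. Its log2 fold change was 0.80 (limma, adjusted p = 0.729), and control mouse 1 lay within the RSD range.

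A transcript listed as lncRNA, NONMMUT033711.2, lies inside Nrxn2 on the same strand, from 6527804 to 6530957 near the 3' end. It was level across the mice, with 4.56, 5.65 and 5.92 FPKM in RSD mice, against 5.65, 5.44 and 5.10 FPKM in control mice. The sum with lncRNA transcripts was chosen after the data had been seen. Adding this one to the mRNA gave 16.6, 19.6 and 12.2 FPKM in RSD mice, against 9.84, 9.62 and 9.28 FPKM in control mice. The groups still did not overlap, and the log2 fold change of this larger sum was 0.72 (SE 0.186, limma, adjusted p = 0.462), under the fold of the study's threshold. The step between groups in Nrxn2 lay in the mRNA transcripts and not in this lncRNA transcript.

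**Figure D2:**
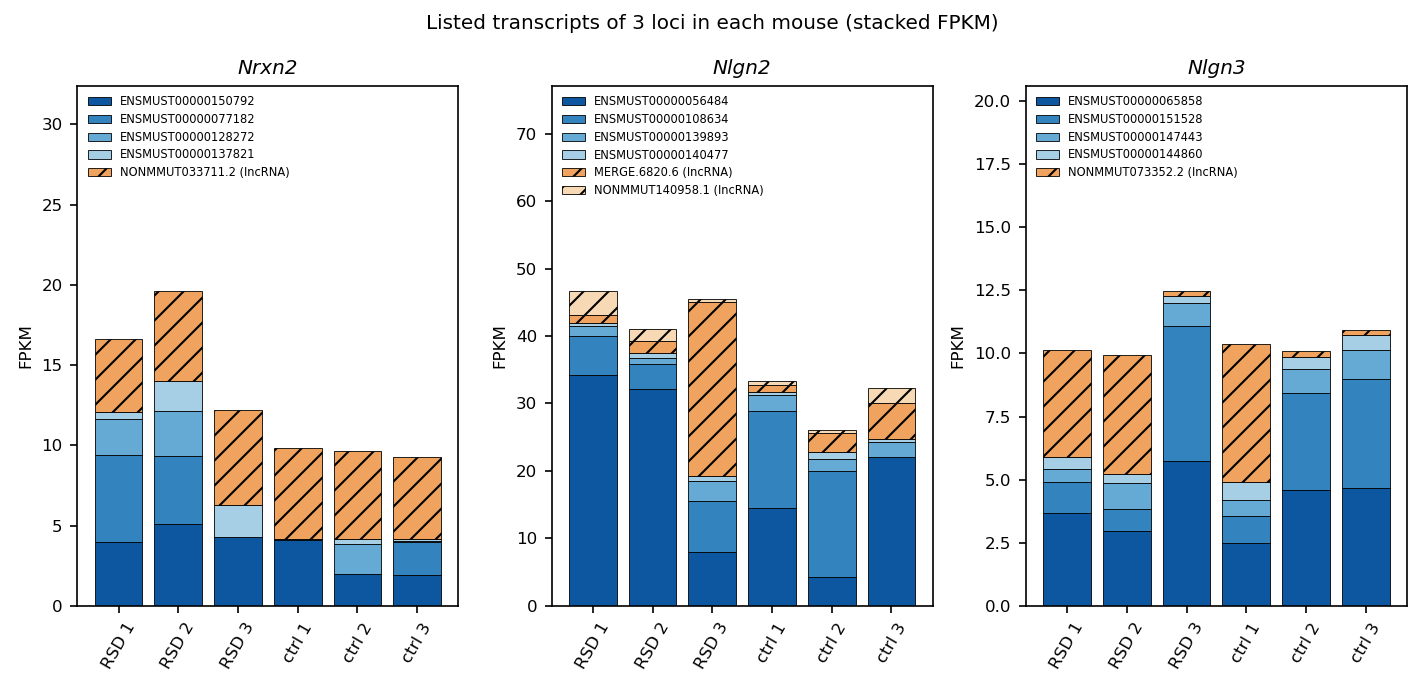
Stacked FPKM of the listed transcripts of Nrxn2, Nlgn2 and Nlgn3 in each mouse (RSD 1 to 3, then control 1 to 3), with mRNA transcripts in blue and lncRNA transcripts hatched in orange. In RSD mouse 3 the lncRNA transcript of Nlgn2 reaches 25.7 FPKM while the mRNA part is 19.3 FPKM, and the whole stack of Nlgn3 is between 9.93 and 12.5 FPKM in the 6 mice although its mRNA part is not.

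Nrxn3 encodes neurexin 3 and is the longest of the 8 genes, on chromosome 12 from 88722876 to 90332897 on the plus strand. Summed over 5 mRNA transcripts it was at 24.1, 24.2 and 18.9 FPKM in RSD mice, against 25.8, 24.0 and 26.2 FPKM in control mice. RSD mouse 3 was the lowest, and the other RSD mice were just above control mouse 2, the lowest control. The means were 22.4 ± 3.01 FPKM in RSD mice and 25.3 ± 1.17 FPKM in control mice (SD, n = 3 each). This was a log2 fold change of -0.18 (SE 0.132, limma, adjusted p = 0.668), and without RSD mouse 3 it was -0.067.

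One Nrxn3 transcript stood out from this level total. ENSMUST00000170533 starts inside the gene at 88953390, ends at 89187319, and was at 3.46, 4.21 and 2.29 FPKM in RSD mice, against 6.54, 7.98 and 5.88 FPKM in control mice. Every RSD mouse was below every control mouse. The log2 fold change was -1.04 (SE 0.273, limma, adjusted p = 0.601). Across the 8 genes 23 of the 25 mRNA transcripts were tested and none was called at an adjusted p under 0.05, against 0.163% of the 29471 mRNA transcripts tested. ENSMUST00000170533 was the 1 member transcript with p of 0.05 or less before adjustment, against 6.78% of all, and the 1 that met the threshold used in the study, against 4.09% of all. It was also the 1 lower without overlap, against 6.17% of all. Its share of the Nrxn3 mRNA was lower too, by -0.86 on the log2 scale (limma, adjusted p = 0.852). Without control mouse 2 no member transcript met the threshold used in the study, and without RSD mouse 3 ENSMUST00000170533 did not.

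The other Nrxn3 mRNA transcripts overlapped between the groups. Of the 3 that share the first start of the gene, ENSMUST00000110138, which ends at 88850849, was the most abundant at 9.05, 7.00 and 6.96 FPKM in RSD mice, against 9.76, 4.85 and 6.95 FPKM in control mice. ENSMUST00000167103, the transcript that runs through the whole gene, was at 3.81, 4.58 and 4.86 FPKM in RSD mice, against 4.06, 4.73 and 5.09 FPKM in control mice. ENSMUST00000167734 was at 2.06, 2.63 and 2.46 FPKM in RSD mice, against 1.68, 1.72 and 2.42 FPKM in control mice. Together the first-start transcripts gave 14.9, 14.2 and 14.3 FPKM in RSD mice, against 15.5, 11.3 and 14.5 FPKM in control mice, so RSD and control mice were alike in range there. ENSMUST00000167887, which starts downstream at 89193106 and reaches the 3' end, was at 5.73, 5.78 and 2.38 FPKM in RSD mice, against 3.75, 4.72 and 5.87 FPKM in control mice, and its one low RSD value was that of RSD mouse 3.

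The start of ENSMUST00000170533 is used by 2 assembled transcripts listed as lncRNA as well, within 300 bases of it. Summed with them, the second start gave 10.2, 7.5 and 9.26 FPKM in RSD mice, against 13.9, 13 and 9.38 FPKM in control mice. RSD mouse 1 was then above control mouse 3, so the separation between groups seen in the mRNA transcript was not present in the sum over that start. In all, 10 lncRNA transcripts lie in the Nrxn3 locus. The most abundant, NONMMUT015203.2, lies at the 3' end from 90332540 to 90334159 and was at 24.5, 21.1 and 24.0 FPKM in RSD mice, against 18.1, 27.8 and 23.2 FPKM in control mice. It was about as high as all Nrxn3 mRNA together. With every lncRNA transcript added, Nrxn3 was at 79.6, 77.4 and 70.4 FPKM in RSD mice, against 64.2, 95.2 and 77.5 FPKM in control mice, a log2 fold change of -0.04.

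**Figure D3:**
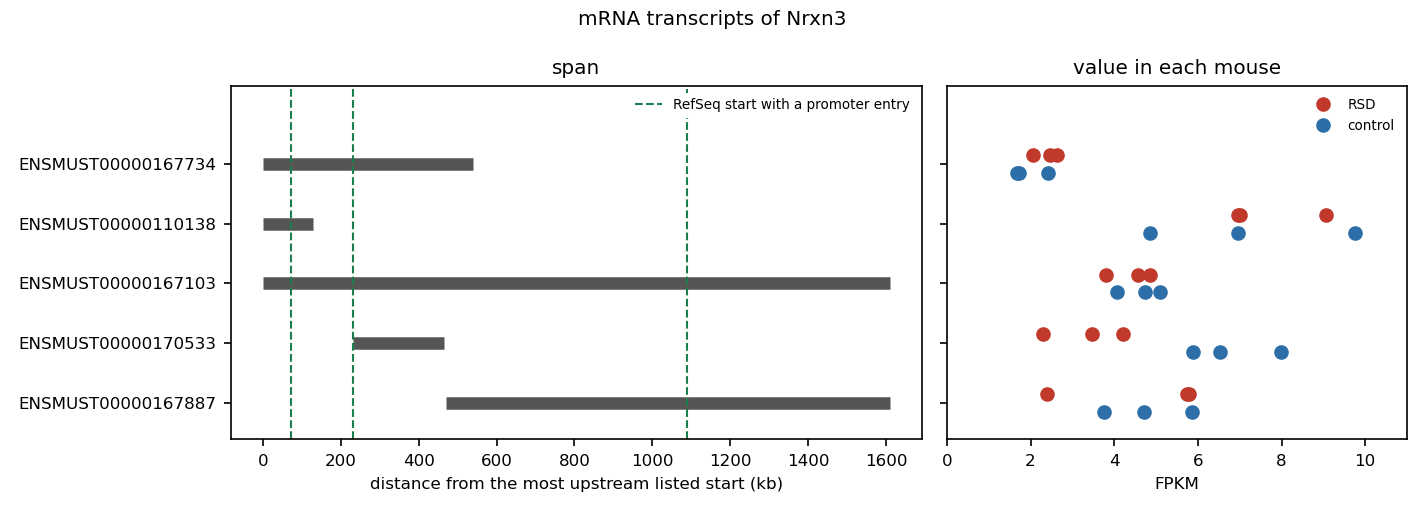
Left, the span of each Nrxn3 mRNA transcript in kilobases from the most upstream listed start, with the RefSeq starts that have a promoter entry as dashed lines. Right, the level of each transcript in FPKM in every mouse, RSD in red above control in blue. ENSMUST00000170533, which begins at a RefSeq start, is the one row whose RSD points (2.29 to 4.21 FPKM) lie below all its control points (5.88 to 7.98 FPKM).

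RefSeq promoter sequences (build GRCm38.p6) were matched by symbol for 5 of the 8 genes, with 8 entries. A pair of Nrxn3 entries are shown because one lies directly before the start of the transcript that separated the groups, and the other before an internal start that no listed mRNA transcript uses. Each is the 250 bases before the annotated start on the plus strand, 5' to 3', with motif matches in capitals.
Nrxn3 second start, chr12:88953140-88953389: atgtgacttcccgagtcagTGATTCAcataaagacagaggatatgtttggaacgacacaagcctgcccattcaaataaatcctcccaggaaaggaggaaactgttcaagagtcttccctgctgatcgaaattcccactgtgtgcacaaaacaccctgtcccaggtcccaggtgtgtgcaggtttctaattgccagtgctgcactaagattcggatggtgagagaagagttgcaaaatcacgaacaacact
Nrxn3 internal start, chr12:89812233-89812482: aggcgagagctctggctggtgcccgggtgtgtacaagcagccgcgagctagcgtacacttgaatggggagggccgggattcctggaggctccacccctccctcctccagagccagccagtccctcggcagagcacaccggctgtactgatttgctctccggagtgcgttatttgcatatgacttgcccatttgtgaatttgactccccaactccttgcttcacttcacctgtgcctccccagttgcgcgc
The bases were searched on both strands for the cAMP response element TGACGTCA, its core TGACG, the EGR motif GCGTGGGCG, the AP-1 motif TGANTCA, the GC box GGGCGG and the E-box CACGTG, of which TGACG lies within TGACGTCA. The promoter of the second start held 1 AP-1 match, a motif found in 6.75% of 32851 promoters, and the internal one held no match to any of the 6. A match is a description of the letters. The GC content was 46.8% for the second start and 60% for the internal start, with a median of 52.4% over all promoters. The nearest listed mRNA start to the internal one is 619377 bases away. By their span, no listed mRNA transcript of Nrxn2 or Nrxn3 was of the short class that starts late in the gene and reaches its 3' end, so long and short neurexins could not be compared. The long class in Nrxn3 joined ENSMUST00000167103 with ENSMUST00000167887, which reaches the 3' end but starts 29.2% into the gene. It is therefore not a measure of the first start alone. The class gave 9.55, 10.4 and 7.25 FPKM in RSD mice, against 7.81, 9.45 and 11 FPKM in control mice, with overlap.

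Nlgn1 encodes neuroligin 1 and lies on the minus strand of chromosome 3 from 25426215 to 26332460. Its mRNA sum was 15.8, 11.9 and 13.6 FPKM in RSD mice, against 11.6, 18.8 and 14.5 FPKM in control mice. Both the lowest and the highest mouse were controls. The means were 13.7 ± 1.96 FPKM in RSD mice and 15 ± 3.59 FPKM in control mice (SD, n = 3 each). As a log2 fold change this was -0.11 (SE 0.21, limma, adjusted p = 0.877). ENSMUST00000192774, from 26131670 to 26331870, carried most of it at 12.0, 9.09 and 10 FPKM in RSD mice, against 8.79, 15.2 and 11.3 FPKM in control mice. ENSMUST00000193603, which spans the gene, was at 3.74, 2.77 and 3.58 FPKM in RSD mice, against 2.86, 3.54 and 3.25 FPKM in control mice. The high control value of the sum came from the shorter transcript.

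Nlgn2 encodes neuroligin 2, the form of inhibitory synapses, on the minus strand of chromosome 11 from 69823122 to 69837784. Its mRNA sum was 42.0, 37.5 and 19.3 FPKM in RSD mice, against 31.7, 22.9 and 24.8 FPKM in control mice. RSD mice held both ends of the range, with RSD mouse 3 at the bottom. The means were 32.9 ± 12.0 FPKM in RSD mice and 26.4 ± 4.63 FPKM in control mice (SD, n = 3 each). On the log2 scale RSD minus control was 0.25 (SE 0.322, limma, adjusted p = 0.798). It was 0.60 without RSD mouse 3 and 0.04 without RSD mouse 1.

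A pair of overlapping Nlgn2 transcripts made up most of that sum, and its division differed from mouse to mouse. ENSMUST00000056484, from 69823122 to 69834849, was at 34.2, 32.2 and 7.91 FPKM in RSD mice, against 14.4, 4.32 and 22.1 FPKM in control mice. ENSMUST00000108634, which starts further upstream at 69837784, was at 5.74, 3.71 and 7.67 FPKM in RSD mice, against 14.5, 15.7 and 0.0029 FPKM in control mice. Control mouse 3 had nearly all of the pair in the first and control mouse 2 most of it in the second. Summed, the pair gave 39.9, 35.9 and 15.6 FPKM in RSD mice, against 28.9, 20 and 22.1 FPKM in control mice. ENSMUST00000139893, a shorter transcript inside the gene, was at 1.52, 0.809 and 2.87 FPKM in RSD mice, against 2.35, 1.69 and 2.10 FPKM in control mice.

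The one RSD mouse with little Nlgn2 mRNA had the most of a lncRNA transcript of the same gene. MERGE.6820.6 runs from 69825561 to 69834259 on the strand of Nlgn2 and was at 1.18, 1.76 and 25.7 FPKM in RSD mice, against 1.04, 2.69 and 5.29 FPKM in control mice. NONMMUT140958.1, at the 5' end from 69836770 to 69837715, was at 3.57, 1.81 and 0.530 FPKM in RSD mice, against 0.658, 0.566 and 2.27 FPKM in control mice. Adding both to the mRNA gave 46.7, 41.1 and 45.5 FPKM in RSD mice, against 33.4, 26.1 and 32.3 FPKM in control mice. All RSD mice were then above all control mice, with a log2 fold change of 0.54 (SE 0.13, limma, adjusted p = 0.455). Of the 12345 genes tested on such sums 0.0729% were called at an adjusted p under 0.05, and none of the 8 was among them. Nrxn2, Nlgn2 and Lrrtm2 had a p of 0.05 or less before adjustment, against 9.56% of all genes. The same members were higher in RSD mice without overlap, against 9.52% of all genes. With the lncRNA transcripts 7 of the 8 fold changes were positive, against 53.3% of all genes.

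The promoter of ENSMUST00000108634 is shown because the share of that transcript in the pair ranged from nearly none to most of it between mice. It is the 250 bases before the RefSeq start on the minus strand of GRCm38.p6, read 5' to 3', with matches to the GC box GGGCGG in capitals.
Nlgn2 upstream start, chr11:69837785-69838034: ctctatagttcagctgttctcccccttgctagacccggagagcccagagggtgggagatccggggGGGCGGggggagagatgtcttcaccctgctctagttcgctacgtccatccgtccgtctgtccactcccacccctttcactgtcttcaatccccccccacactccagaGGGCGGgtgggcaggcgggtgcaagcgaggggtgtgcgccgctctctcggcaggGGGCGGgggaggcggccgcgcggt
It held 3 GC box matches and none to the other motifs searched. The GC box was found in 32.7% of the promoters of this length, and the GC content of the sequence was 67.6%.

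Nlgn3 encodes neuroligin 3 and lies on the plus strand of the X chromosome from 101299194 to 101325963. Its mRNA sum was 5.89, 5.21 and 12.3 FPKM in RSD mice, against 4.92, 9.85 and 10.7 FPKM in control mice. The mice formed a low set and a high set, each with members of both groups. The means were 7.79 ± 3.91 FPKM in RSD mice and 8.5 ± 3.14 FPKM in control mice (SD, n = 3 each). The difference on the log2 scale was -0.15 (SE 0.44, limma, adjusted p = 0.921). The pair of transcripts that span the gene followed the same split. ENSMUST00000065858 was at 3.67, 2.94 and 5.72 FPKM in RSD mice, against 2.49, 4.6 and 4.67 FPKM in control mice. ENSMUST00000151528 was at 1.25, 0.888 and 5.37 FPKM in RSD mice, against 1.06, 3.83 and 4.31 FPKM in control mice.

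The lncRNA transcript at the 3' end of Nlgn3 had the opposite split. NONMMUT073352.2, from 101323573 to 101325956, was at 4.25, 4.72 and 0.198 FPKM in RSD mice, against 5.47, 0.245 and 0.176 FPKM in control mice. It was high in the 3 mice with low Nlgn3 mRNA and near 0.2 FPKM in the 3 mice with high mRNA. Summed, Nlgn3 was at 10.1, 9.93 and 12.5 FPKM in RSD mice, against 10.4, 10.1 and 10.9 FPKM in control mice, a log2 fold change of 0.04 (limma, adjusted p = 0.916). The within-group SD of the log2 value was 0.636 for the mRNA sum and 0.134 for the sum with the lncRNA transcript. For Nlgn2 it was 0.460 and 0.152, and for Nrxn2 0.429 and 0.246. It was larger with the lncRNA transcripts for Nlgn1, at 0.282 and 0.499, and for Nrxn3, at 0.150 and 0.211. Over all genes the medians were 0.286 for mRNA sums and 0.257 for the sums with lncRNA transcripts.

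**Figure D4:**
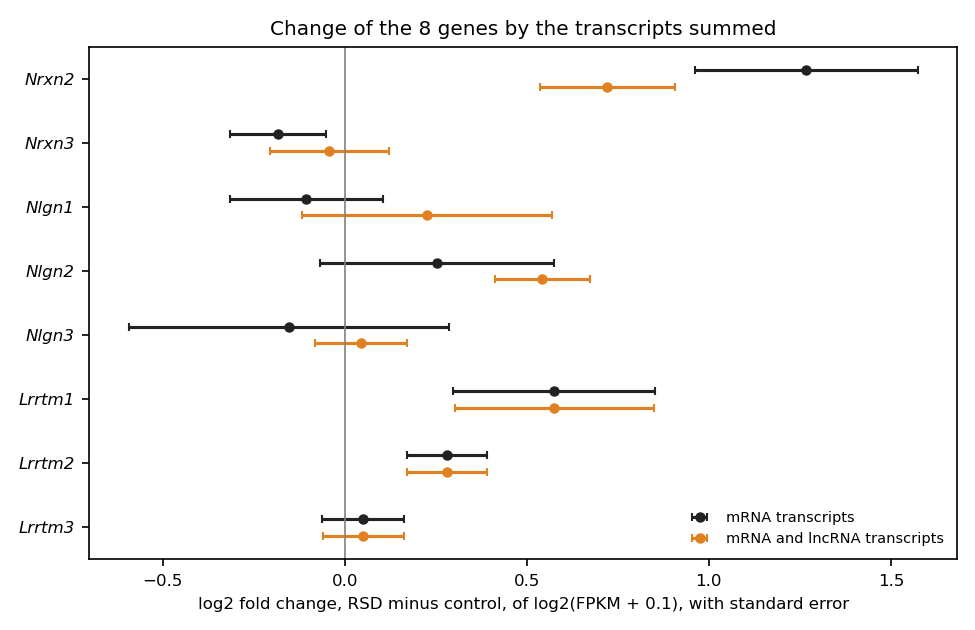
Log2 fold change (RSD minus control, on log2(FPKM + 0.1), with its standard error) of each gene from the mRNA transcripts alone (black) and from mRNA and lncRNA transcripts together (orange). Nrxn2 is at 1.27 without and 0.72 with the lncRNA transcripts and Nlgn2 at 0.25 without and 0.54 with them, and the LRRTM genes, which have no lncRNA transcript in their loci, keep their values.

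The LRRTM genes lie within the alpha-catenin genes on the opposite strand, Lrrtm1 in Ctnna2, Lrrtm2 in Ctnna1 and Lrrtm3 in Ctnna3. Lrrtm1, on the plus strand of chromosome 6 from 77242689 to 77257791, was at 13.3, 11.2 and 8.80 FPKM in RSD mice, against 10.4, 5.53 and 6.83 FPKM in control mice. The groups overlapped through control mouse 1 and RSD mouse 3. The means were 11.1 ± 2.26 FPKM in RSD mice and 7.59 ± 2.52 FPKM in control mice (SD, n = 3 each). The log2 difference, RSD minus control, was 0.58 (SE 0.277, limma, adjusted p = 0.585), and 0.375 without control mouse 2. ENSMUST00000020400, which spans the gene, was at 10.7, 6.42 and 6.81 FPKM in RSD mice, against 7.91, 3.37 and 3.47 FPKM in control mice.

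A pair of short Lrrtm1 transcripts has nearly the same span, and its division between them varied from mouse to mouse in both groups. ENSMUST00000161677 was at 2.61, 2.40 and 1.97 FPKM in RSD mice, against 0.0165, 0.788 and 1.76 FPKM in control mice, and did not overlap (log2 fold change 2.06, limma, adjusted p = 0.747). ENSMUST00000159616 was at 0.0481, 2.41 and 0.0225 FPKM in RSD mice, against 2.47, 1.38 and 1.6 FPKM in control mice. Its share of the Lrrtm1 mRNA was lower in every RSD mouse than in every control mouse (log2 difference -2.96, limma, adjusted p = 0.852). Of the 22 member shares tested none was called at an adjusted p under 0.05, against 0.143% of 23840 shares, and 2 had a p of 0.05 or less before adjustment, against 5.78%. The pair summed to 2.66, 4.81 and 2.00 FPKM in RSD mice, against 2.48, 2.16 and 3.36 FPKM in control mice, with overlap.

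Lrrtm2, on the minus strand of chromosome 18, has a single listed mRNA transcript. It was at 18.2, 19.4 and 18.7 FPKM in RSD mice, against 14.4, 14.8 and 17.2 FPKM in control mice. All RSD mice were above all control mice, control mouse 3 being the nearest. The means were 18.8 ± 0.578 FPKM in RSD mice and 15.5 ± 1.52 FPKM in control mice (SD, n = 3 each). The log2 fold change was 0.28 (SE 0.111, limma, adjusted p = 0.553). The unadjusted p was above 0.05 in the fit over transcripts and in 10 of the 17 alternatives run on the gene sum, among them 5 of the 6 that left out a mouse. With median scaling of the libraries the log2 fold change was 0.20 (limma, unadjusted p = 0.226), so the difference depends in part on the library scale.

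Lrrtm3, on the minus strand of chromosome 10 from 63928472 to 64090274, had much the same level in all mice. It was at 18.4, 16.5 and 17.5 FPKM in RSD mice, against 16.7, 15.5 and 18.5 FPKM in control mice, and its means were 17.5 ± 0.964 FPKM in RSD mice and 16.9 ± 1.51 FPKM in control mice (SD, n = 3 each). The log2 fold change was 0.05 (SE 0.113, limma, adjusted p = 0.892), and it turned to -0.03 with median scaling. Within this level sum ENSMUST00000105439, the long form, was at 12.0, 12.4 and 12.3 FPKM in RSD mice, against 10.6, 9.57 and 10.4 FPKM in control mice. The groups did not overlap, with a log2 fold change of 0.26 (limma, adjusted p = 0.748). ENSMUST00000148712, the short form at the 5' end, was at 6.43, 4.13 and 5.27 FPKM in RSD mice, against 6.19, 5.92 and 8.07 FPKM in control mice. With ENSMUST00000161677 and the Lrrtm2 transcript, ENSMUST00000105439 was 1 of 3 tested member transcripts higher without overlap, against 7.22% of all. This is not particular to the LRRTM genes, as ENSMUST00000137821 of Nrxn2, which was too low to be tested, was also higher without overlap. The Lrrtm1 pair that holds ENSMUST00000161677 overlapped when summed.

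By family, the LRRTM genes summed to 50, 47.1 and 45.0 FPKM in RSD mice, against 41.6, 35.8 and 42.6 FPKM in control mice, with no overlap. The neuroligins summed to 63.6, 54.6 and 45.2 FPKM in RSD mice, against 48.2, 51.5 and 50 FPKM in control mice. The neurexins summed to 36.2, 38.2 and 25.2 FPKM in RSD mice, against 30, 28.2 and 30.4 FPKM in control mice. In the neurexin and neuroligin families RSD mouse 3 was the lowest of the 6 mice. The mRNA of the whole library summed to 149323 FPKM in RSD mouse 3 and 140437 FPKM in control mouse 3. Relative to these totals the LRRTM sum of RSD mouse 3 was not above that of control mouse 3. The separation of the LRRTM sums thus depends on how the libraries are scaled. The family sums were not tested.

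Cell type markers were read beside these values. Without Slc17a7, the other 5 excitatory neuron markers summed to 320, 241 and 156 FPKM in RSD mice, against 229, 111 and 130 FPKM in control mice. The 7 interneuron markers summed to 187, 162 and 124 FPKM in RSD mice, against 165, 108 and 104 FPKM in control mice. In both sums RSD mouse 1 was the highest RSD mouse and control mouse 1 the highest control. Of the 8 genes Lrrtm1 and Nlgn2 had this order and no other did. The 6 oligodendrocyte markers summed to 255, 231 and 281 FPKM in RSD mice, against 218, 133 and 178 FPKM in control mice, and did not overlap. The 6 astrocyte markers summed to 429 to 516 FPKM in RSD mice and 270 to 545 FPKM in control mice. The PFC had been separated by a coronal cut behind the olfactory tubercle. Striatal markers were at 30.1 to 33.7 FPKM in RSD mice and 15.8 to 37.1 FPKM in control mice for 3 of 5 markers in the table, and the 1 olfactory bulb marker in the table was under 0.7 FPKM in every mouse. No marker reached an adjusted p under 0.05 in limma, while p before adjustment was 0.05 or less for 3 of the 6 oligodendrocyte markers, 2 of 6 microglial markers, 1 of 4 endothelial markers, 1 of 7 interneuron markers and 1 marker each of oligodendrocyte precursors, striatum and blood, against 8.94% of all genes. The endothelial markers summed to 19.9, 17 and 19.6 FPKM in RSD mice, against 36.4, 33.4 and 19.5 FPKM in control mice, and the microglial markers to 46.2, 48.4 and 32.9 FPKM in RSD mice, against 48.3, 35 and 43 FPKM in control mice, both with overlap. The part of cell composition in the values of the 8 genes was not tested.

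Partner genes were read in lists. As the lists were chosen with earlier results of these data known, their counts beside all genes are not an independent test. Of 20 secreted and membrane ligands of neurexins beside neuroligins and LRRTMs, 16 were tested and none was called. A p of 0.05 or less before adjustment was found for 4, all higher in RSD mice, against 6.21% of all genes in that direction, and 12 fold changes were positive. The median log2 fold change of the list was 0.41, beside 0.03 over all genes. Cbln2, a secreted cerebellin that binds neurexins, was at 7.21, 24.9 and 22.0 FPKM in RSD mice, against 2.62, 3.42 and 1.81 FPKM in control mice. Every RSD mouse was above the controls, with a log2 fold change of 2.59 (SE 0.521, limma, adjusted p = 0.45). Adgrl3, a latrophilin receptor, was at 46.9, 34.1 and 30.5 FPKM in RSD mice, against 17.7, 26.5 and 18.9 FPKM in control mice (log2 fold change 0.82, limma, adjusted p = 0.532). Adgrl1, another latrophilin, was at 54.0, 50.1 and 55.3 FPKM in RSD mice, against 44.7, 29.2 and 20 FPKM in control mice (log2 fold change 0.84, limma, adjusted p = 0.546). The fourth was Clstn3, a calsyntenin named after its values were seen, at 100, 104 and 104 FPKM in RSD mice, against 93.5, 65.8 and 73.8 FPKM in control mice. Of the 16, 5 were higher without overlap, against 9.39% of all genes, and 1 was lower, against 6.66%. The 5 were these 4 and Dag1, dystroglycan, also named after its values were seen.

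Inside the cell, neurexins and neuroligins bind scaffold proteins. Of 20 such partners 19 were tested and none was called, with 1 lower at p of 0.05 or less before adjustment (2.74% of all genes in that direction), 10 positive fold changes and a median log2 fold change of 0.04. Dlg1, the scaffold SAP97, was at 43.1, 40.2 and 42.0 FPKM in RSD mice, against 50.2, 48.1 and 49.6 FPKM in control mice. It was the 1 of the 19 lower without overlap, against 6.66% of all genes (log2 fold change -0.24, limma, adjusted p = 0.55). Shank1, a scaffold of the postsynaptic density, was at 44.9, 19.9 and 12.5 FPKM in RSD mice, against 8.30, 12.3 and 10.4 FPKM in control mice (log2 fold change 1.12, limma, adjusted p = 0.56). Pick1, a PDZ protein, was at 11.2, 11 and 11.4 FPKM in RSD mice, against 10.6, 9.03 and 9.84 FPKM in control mice (log2 fold change 0.19, limma, adjusted p = 0.615). Shank1 and Pick1 were the 2 of the 19 higher without overlap, against 9.39% of all genes.

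Inhibitors, proteases and kinases that act on neuroligins and neurexins held no gene with p of 0.05 or less before adjustment among 9 tested of 10, and the median log2 fold change was 0.01. The 3 with the smallest p were Camk2a, a kinase of excitatory synapses, at 43.4, 28.3 and 27.6 FPKM in RSD mice, against 29.3, 18.3 and 22.2 FPKM in control mice, the gamma-secretase subunit Psen2 and the sheddase Adam17. Psen2 was at 1.69, 3.27 and 3.30 FPKM in RSD mice, against 4.41, 2.86 and 5.77 FPKM in control mice. Adam17 was at 2.89, 3.17 and 3.23 FPKM in RSD mice, against 3.72, 3.16 and 3.77 FPKM in control mice. All 3 overlapped between the groups.

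Regulators of neurexin splicing and of neuronal splicing at large had 11 of 11 tested, none called, 1 higher at p of 0.05 or less before adjustment, and 6 positive fold changes with a median of 0.52, the lowest of the 6 positive values. Over all genes 6.21% were higher at that p, 54.5% were positive and the median was 0.03. Higher without overlap were 2 of the 11, Nova2 and Rbfox3, against 9.39% of all genes, and 1 was lower, against 6.66%. The lower one was Ptbp2, a neuronal relative of Ptbp1 named after its values were seen, at 34.3, 31.6 and 31.5 FPKM in RSD mice, against 35.6, 37.4 and 34.4 FPKM in control mice. Nova2, a neuronal splicing factor, was at 13.4, 16.0 and 14.6 FPKM in RSD mice, against 10.2, 7.5 and 7.33 FPKM in control mice. It did not overlap, with a log2 fold change of 0.82 (SE 0.167, limma, adjusted p = 0.451). Ptbp1, a repressor of neuronal exons, was at 7.93, 9.88 and 6.74 FPKM in RSD mice, against 4.14, 4.85 and 7.19 FPKM in control mice (log2 fold change 0.61, limma, adjusted p = 0.557). Rbfox3, known as the neuronal marker NeuN, was at 9.16, 9.78 and 13.5 FPKM in RSD mice, against 8.62, 7.35 and 4.04 FPKM in control mice (log2 fold change 0.74, limma, adjusted p = 0.566), without overlap. The host genes of the LRRTMs did not share their values. Ctnna2, around Lrrtm1, was at 26.1, 25.4 and 24.5 FPKM in RSD mice, against 13.3, 25.9 and 23.7 FPKM in control mice. Ctnna1, around Lrrtm2, was at 5.49, 6.37 and 4.91 FPKM in RSD mice, against 7.77, 5.58 and 6.68 FPKM in control mice. Ctnna3, around Lrrtm3, was too low to be tested.

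**Figure D5:**
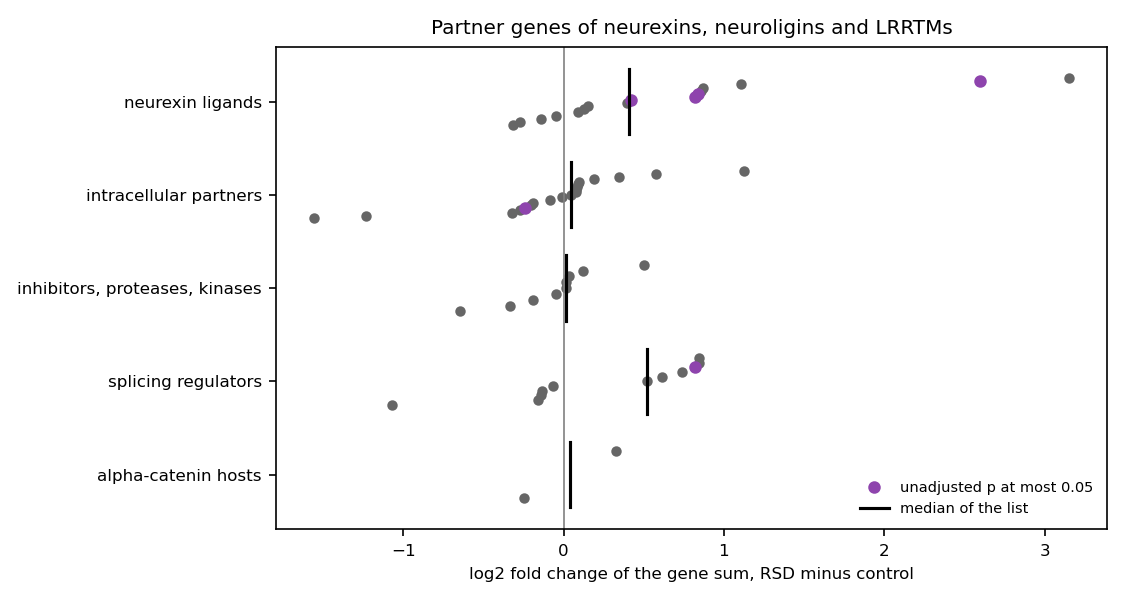
Log2 fold change of each tested gene of the 5 lists (RSD minus control, from gene sums), with the median of each list as a bar and genes whose p before adjustment was 0.05 or less in purple. The purple points at the right of the ligand row are Cbln2 at 2.59 and the latrophilins, and the point beyond them is Ptprs, named after its values were seen, which was listed at 0 FPKM in 2 control mice.

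The genes whose pattern over the 6 mice was nearest to that of the most abundant member of each family were found by the root mean square difference of the log2 values, each centred on its mean. For Nrxn3 they were Yap1 and Ncbp2, at 0.0439 and 0.0459, with a median of 0.317 over the genes tested. For Nlgn2 they were Krtcap2 and Entpd2, at 0.0915 and 0.109, with a median of 0.455. For Lrrtm3 they were Ercc8 and Arsb, at 0.043 and 0.0432, with a median of 0.294. They were picked as the nearest of the 12277 genes tested, so small distances were to be had in any case. None of these 6 genes is on the lists of partners, which hold few of the genes tested, so nothing can be read from their absence.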

How the data were processed

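The authors depleted ribosomal RNA, made strand-preserving libraries and computed with the Cufflinks suite the FPKM of each mRNA and lncRNA transcript. The deposited FPKM values divide the fragments of a gene among its isoforms and carry no counts, so no count test was run and the precision of low values is unknown. The labels name Bowtie 0.12.2 and mm9, yet 99.9% of 31440 mRNA transcripts matched by symbol overlapped their gene on GRCm38, all 25 member transcripts among them. Coordinates are those of the deposited tables. The deposited log2 fold changes and p-values of the authors were not used, nor was the combined table, which repeats the others.

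mRNA transcripts were summed by symbol. Values were log2(FPKM + 0.1), tested where at least 3 mice had at least 0.5 FPKM, with limma 3.58.1 (trended, two-sided) in R 4.3.3 and Benjamini-Hochberg adjustment over all genes, transcripts or isoform shares. The procedure was tested on simulated data. Alternatives were other pseudocounts, filters and scalings, no trend, the replicate block, each mouse left out, and locus sums. The sum with lncRNA transcripts was added later. The genes named are the 8 members, their transcripts of at least 1 FPKM on average in a group, the 3 of each list with the smallest p and the 2 nearest genes per family. Clstn3, Dag1, Ptprs, Ptbp2, Slc17a7 and the lncRNA transcripts were named beside this rule. Members and lists were chosen with earlier results of these data known.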

Additional observations from a re-analysis of the deposited data

Results flagged for a closer look

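Some transcripts listed as lncRNA, which the gene sums leave out, were in at least 1 RSD mouse more than 4 times the highest control. This rule does not look for the reverse. In the Nlgn1 locus NONMMUT042288.2, NONMMUT042293.2 and NONMMUT042296.2 were at 13.8, 16.5 and 7.75 FPKM in RSD mouse 3 and at no more than 0.23 FPKM in each of the other 5 mice. They lie apart from each other inside Nlgn1, on its strand. RSD mouse 3 had no such excess in the Nlgn1 mRNA, at 13.6 FPKM. MERGE.27279.19, in the same locus, was at 1.95, 0 and 0.790 FPKM in RSD mice, against 0.116, 0 and 0 FPKM in control mice. In the Nlgn2 locus MERGE.6820.6 reached 25.7 FPKM in RSD mouse 3, against 5.29 FPKM in the highest control. Single-mouse values of this kind were found in every library. Of 25974 lncRNA transcripts, 39, 29 and 29 in RSD mice and 58, 56 and 32 in control mice were at 5 FPKM or more and over 10 times the next mouse. Of these, 3 in RSD mouse 3 and 1 in control mouse 2 were in the loci of the 8 genes. The one in control mouse 2 was MERGE.27279.22 in the Nlgn1 locus, at 6.86 FPKM, against no more than 0.673 FPKM in RSD mice. The groups of 3 mice are too small for a search for outlying mice.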

How the results depend on the processing

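No member gene, transcript or share was called at an adjusted p under 0.05 under any alternative run. Nrxn2, Nrxn3, Nlgn2, Lrrtm1 and Lrrtm2 kept their direction under all 17 alternatives for each. The log2 fold change of Nrxn2 ranged from 0.72 to 1.61, with adjusted p from 0.0888 to 0.885, and that of Nlgn2 from 0.04 to 0.60. Nlgn1 turned to 0.07 without control mouse 2 and to 0.23 in the locus sum and in the sum of mRNA and lncRNA transcripts. Nlgn3 turned to 0.08 without RSD mouse 2, 0.05 without control mouse 3, 0.036 in the locus sum, which takes in 6 transcripts of its neighbour Med12, and 0.044 in the sum with lncRNA transcripts. Lrrtm3 turned to -0.03 with median scaling, -0.03 with quantile normalization and -0.01 without control mouse 2. With a mouse left out Nlgn1 ranged from -0.273 to 0.07, Nlgn3 from -0.532 to 0.08 and Lrrtm3 from -0.01 to 0.117. The number of genes at a log2 fold change of 1 and an unadjusted p of 0.05, which was 1, was 0 in the locus sum and 0 in the sum with lncRNA transcripts. For transcripts it was 0 at a pseudocount of 1 and 2 with no filter, where ENSMUST00000137821 of Nrxn2 was added, and 0 to 3 when a mouse was left out. It was 2 without RSD mouse 2, 3 without control mouse 1, 0 without control mouse 2 and 3 without control mouse 3. The Nrxn3 transcript ENSMUST00000170533 was not among them without RSD mouse 3, without control mouse 2 or at a pseudocount of 1. The causes were not tested.

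Nothing says whether the replicate numbers pair the mice. The correlations of same-numbered deviations were 0.129, -0.0945 and 0.0961, and not every mouse correlated best with its own number. With 3 mice a group these values cannot decide whether the mice were paired. With the replicate number as a block Nrxn2 had a log2 fold change of 1.27 and an adjusted p of 0.552 from limma, and the block changed no call of a member. The ratio of long to short neurexin transcripts was not run, since no listed mRNA transcript of Nrxn2 or Nrxn3 was of the short class under any of the 3 rules tried. With 3 mice a group and no counts, differences within the spread between mice were not detectable.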
